A study of Homo sapiens with 12 samples.

Results

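CEMIP and 6 other genes of hyaluronan turnover (HAS2, HAS3, HYAL1, HYAL2, HYAL3 and CD44) were followed in RNA sequencing of SW1736, an established human cell line derived from anaplastic thyroid carcinoma. All 7 were found by symbol among the 56832 symbols counted, and 5 of them passed the filter on low counts. CEMIP was chosen by its strong fall in TRB cells given T3, so every value of CEMIP that uses TRB libraries is given as a description with no test. The other members were taken for their place in the same pathway.

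The cells carried either the vector pCDH-TRB, which supplies thyroid hormone receptor beta, or the empty vector pCDH-EV. All cells, controls included, were first starved of hormone for 24 h in medium with charcoal-stripped serum. They then received 10 nM triiodothyronine (T3, the active thyroid hormone) or its NaOH vehicle for 24 h. The 4 groups, called EV vehicle, EV T3, TRB vehicle and TRB T3 from here on, have 3 libraries each. The labels name a single cell line with a stable vector and do not say whether the 3 libraries of a group came from separate cultures, so p-values measure the spread between these libraries, which may be technical.

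Hyaluronan is a long sugar polymer of the pericellular matrix. It is made at the cell membrane by hyaluronan synthases (HAS1, HAS2, HAS3) from UDP-glucuronic acid and UDP-N-acetylglucosamine, and it is bound at the cell surface by CD44. It is cut by the hyaluronidases HYAL1, HYAL2 and HYAL3 and by the pathway around CEMIP (also known as KIAA1199), a secreted and cell-surface protein needed for hyaluronan breakdown in fibroblasts. CEMIP2 (listed under its older symbol TMEM2) is its membrane-bound relative, and CEMIP is often high in tumours of epithelial origin.

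The stretches just before a RefSeq start site of CEMIP, CEMIP2 and CD44 are shown because these genes carry the main contrasts. CEMIP and CD44 had lower means with T3 in both kinds of cell, and CEMIP2 a higher one. They are 250 bases each, 5′ to 3′ on the gene's strand, from RefSeq (GRCh38.p14), whose promoter table held 6 of the 7 members. CEMIP's stretch is chr15:80779120-80779369 (plus strand), CEMIP2's is chr9:71768514-71768763 (minus strand) and CD44's is chr11:35138921-35139170 (plus strand). Capitals mark every match, on either strand, to the thyroid hormone response half-site AGGTCA, the AP-1 site TGANTCA, the GC box GGGCGG and the TATA box TATAAA. None of the 4 motifs overlap in these stretches.
CEMIP: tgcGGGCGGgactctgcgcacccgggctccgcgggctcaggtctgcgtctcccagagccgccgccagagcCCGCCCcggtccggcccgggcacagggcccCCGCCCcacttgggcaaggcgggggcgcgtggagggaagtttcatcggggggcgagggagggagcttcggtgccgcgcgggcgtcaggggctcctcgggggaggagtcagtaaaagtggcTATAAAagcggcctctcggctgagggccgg
CEMIP2: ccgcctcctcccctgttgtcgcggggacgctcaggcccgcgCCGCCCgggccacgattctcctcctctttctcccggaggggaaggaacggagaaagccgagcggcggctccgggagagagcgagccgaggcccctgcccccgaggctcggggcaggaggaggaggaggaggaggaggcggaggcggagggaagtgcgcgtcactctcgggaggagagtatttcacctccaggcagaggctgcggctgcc
CD44: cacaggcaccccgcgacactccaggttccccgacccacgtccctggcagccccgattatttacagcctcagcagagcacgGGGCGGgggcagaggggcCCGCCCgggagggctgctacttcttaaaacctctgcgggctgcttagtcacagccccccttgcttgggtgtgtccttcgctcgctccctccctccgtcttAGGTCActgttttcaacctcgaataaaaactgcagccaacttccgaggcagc

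CEMIP's stretch held 3 GC boxes, at 247 to 242, 180 to 175 and 150 to 145 bases before the start, and a TATA box at 30 to 25 bases before it. CEMIP2's held 1 GC box, at 209 to 204 bases before the start, and no TATA box. CD44's held 2 GC boxes and 1 half-site, at 52 to 47 bases before the start. Over 35116 promoter stretches of the same length, 12.1% held the half-site, 6.6% the AP-1 site, 42.6% a GC box and 10.7% a TATA box. GC content was 74.4% in the stretch of CEMIP, 71.6% in that of CEMIP2 and 62.4% in that of CD44. The stretches of HAS3, HYAL1, HYAL2 and HYAL3 held no half-site. A match describes letters in this window and is not a binding site.

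Depth and labels were checked first. Counts within genes totalled 3819306 to 13086717 per library. THRB, the gene of the supplied receptor, stood at 13.0 to 15.6 CPM (counts relative to the scaled total of the library) in EV vehicle and 79.8 to 80.4 CPM in TRB vehicle. It stood at 12.3 to 18.3 CPM in EV T3 and at 190 to 322 CPM in TRB T3, and rose 3.36-fold with T3 in TRB cells (edgeR adjusted p = 0.000434), or 3.86-fold without TRB T3 replicate 2 (edgeR adjusted p = 2.1e-07). TRB cells given T3 thus differed from TRB vehicle both in hormone and in the level of the receptor transcript, and their parts in the results below cannot be told apart. KLF9, a T3 target gene, was 10.6-fold higher with T3 in EV cells. In TRB cells it was 16.6-fold higher, or 11.2-fold without TRB T3 replicate 2. With T3, the log2 difference of KLF9 between TRB and EV cells was 0.06 (edgeR adjusted p = 0.90). Without that replicate it was -0.45 (edgeR adjusted p = 0.0574). TRB T3 replicate 2 stood apart: its departure from replicates 1 and 3 followed GC content, with a Spearman coefficient of -0.88 across 12485 genes. The main fitted results are therefore given with all 12 libraries and with the 11 others. EV T3 replicate 2, kept in both fits, departed from its group mean in a similar direction. Across genes its departure correlated at 0.73 with that of TRB T3 replicate 2, and its part in the EV results was not tested. Non-unique alignments were 33.1% to 66.3% of the EV vehicle files and 69.6% to 92.0% of the EV files with T3, and the part of this gap in the T3 response of EV cells was not tested. The epithelial markers KRT8 and EPCAM stood at 386 CPM or more and 317 CPM or more in every library. The thyroid markers TSHR and FOXE1 had no count in any library, TG was at 0.625 CPM or less, and the mesenchymal markers VIM and CDH2 were at 1.51 CPM or less and at 0. FN1, a matrix gene of the same mesenchymal list, stood at 13.6 to 16.5 CPM in EV vehicle, 66.2 to 73.9 in EV T3, 9.15 to 10.2 in TRB vehicle and 147 to 303 in TRB T3. Of 6 fibroblast markers, COL1A1 stood at 16.9 to 20.4, 17.0 to 33.2, 25.2 to 27.7 and 1.44 to 14.9 CPM in the same groups, COL1A2 and COL3A1 had no count in any library, and DCN, LUM and PDGFRB had at most 2 counts in a library. FN1 was thus higher with T3 in both kinds of cell and COL1A1 lower with T3 in TRB cells, in every library, and the part of these levels in the results was not tested. Because these are bulk libraries, fewer cells with a transcript and less transcript per cell cannot be told apart.

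CEMIP was abundant in vehicle in both kinds of cell and was low only where T3 and the supplied receptor came together. It stood at 303, 295 and 308 CPM in EV vehicle and at 201, 194 and 264 CPM in EV T3. In TRB vehicle it stood at 379, 330 and 360 CPM, and in TRB T3 at 14.2, 9.89 and 14.2 CPM. No 2 of the 4 groups overlapped: TRB vehicle was highest, then EV vehicle, EV T3 and TRB T3.

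The mean with T3 was 3.58% of the vehicle mean in TRB cells and 72.8% of it in EV cells. In TRB cells this is a 27.9-fold lower level, or 25.1-fold without replicate 2. The fitted log2 fold change was -4.79 (SE 0.212), and -4.60 (SE 0.156) on 11 libraries, which made CEMIP the gene with rank 7 from the most negative of 14431 fitted genes. These values chose the gene and are not tested. Replicate 2 lay 0.513 below the others on the log2 scale, a small part of the fall. With T3, the log2 difference of CEMIP between TRB and EV cells was -4.10 (SE 0.206) on 12 libraries and -3.88 (SE 0.152) on 11, and in vehicle it was 0.24 (SE 0.179) and 0.25 (SE 0.109).

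The T3 response of CEMIP in EV cells uses no TRB library as a group and was tested. The log2 fold change was -0.46 (SE 0.180, edgeR adjusted p = 0.706) on 12 libraries, where 0.229% of all genes passed. It was -0.46 (SE 0.110, edgeR adjusted p = 0.0288) on 11 libraries, where 7.33% passed. The fall of CEMIP with T3 in EV cells thus passed the threshold in the second fit and not in the first. Both fits hold the same EV libraries, so the like size of this and later EV values was set in advance. Only the shared estimate of spread, the scaling and the genes kept differ between the fits. With GC offsets, which take each library's trend against gene GC content out of the fit, the value on 12 libraries was -0.61 (edgeR adjusted p = 0.0076). In that setting 556 of all genes passed, against 33 in the main fit. The fall of CEMIP there was tested in other settings too. It did not pass when the EV libraries alone were fitted (-0.45, edgeR adjusted p = 0.149), with a replicate block (-0.47, edgeR adjusted p = 0.478) or in DESeq2 (-0.42, DESeq2 adjusted p = 0.523). All 3 EV libraries with T3 lay below all 3 with vehicle. The CEMIP gene spans chr15:80779343-80951776 on the plus strand (hg38), and its counts may include reads of antisense transcripts there, since strand use in counting is not given in the sources used here.

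**Figure D1:**
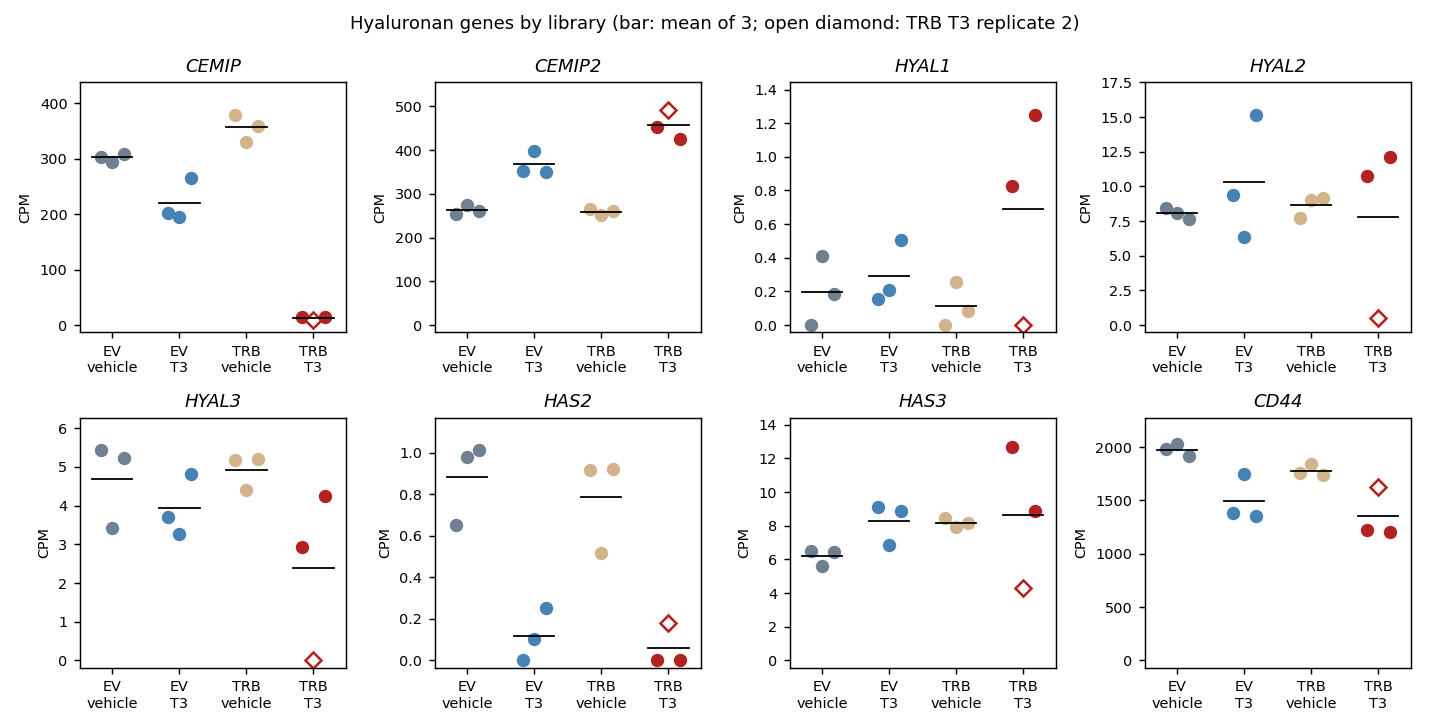
CPM of the 7 hyaluronan genes and CEMIP2 in each library (points), with the mean of 3 libraries (bar) for EV and TRB cells given vehicle or T3; the open diamond is TRB T3 replicate 2. CEMIP falls to 9.89 to 14.2 CPM in TRB T3, CEMIP2 is highest there, and HAS2 is near 0 in both T3 groups.

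CEMIP2 moved the other way. It stood at 255, 275 and 262 CPM in EV vehicle and at 352, 398 and 351 CPM in EV T3. In TRB cells it stood at 266, 251 and 260 CPM with vehicle and at 453, 492 and 425 CPM with T3. The vehicle groups overlapped, and every library with T3 lay above every library with vehicle in both kinds of cell. The share of all genes whose libraries part in this way was not counted, here or for the other genes. For 3 against 3 libraries the smallest p of an exact two-sided permutation test is 0.1.

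In TRB cells CEMIP2 rose by a log2 change of 0.82 (SE 0.131, edgeR adjusted p = 0.00193), and by 0.81 (SE 0.0974, edgeR adjusted p = 3.73e-05) on 11 libraries. In these fits 14.7% and 33.3% of all genes passed. In EV cells the log2 fold change was 0.48 (SE 0.131, edgeR adjusted p = 0.308) on 12 libraries and 0.48 (SE 0.0889, edgeR adjusted p = 0.00829) on 11. With T3, CEMIP2 was higher in TRB than in EV cells by 0.32 (edgeR adjusted p = 0.0377) on 11 libraries, where 19.7% of genes passed, but not on 12 (0.32, edgeR adjusted p = 0.167), where 6.68% passed. The difference between its T3 responses was 0.34 (95% interval -0.06 to 0.75, edgeR adjusted p = 0.301) on 12 libraries and 0.33 (0.04 to 0.62, edgeR adjusted p = 0.112) on 11, and did not pass.

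Per kilobase of exon, CEMIP lay above CEMIP2 in every vehicle library and below it in every T3 library. In EV vehicle CEMIP stood at 39.6 ± 0.907 CPM per kb (SD, n = 3) and CEMIP2 at 27.4 ± 1.06. In EV T3 the levels were 28.9 ± 5.08 for CEMIP and 38.1 ± 2.79 for CEMIP2. In TRB vehicle they were 46.8 ± 3.23 and 26.9 ± 0.769, and in TRB T3 1.68 ± 0.327 and 47.5 ± 3.50. The order of the pair was thus reversed with T3 in EV cells as well. The gap there was smallest in replicate 3, with 34.7 CPM per kb of CEMIP and 36.5 of CEMIP2, against 26.4 and 36.6 in replicate 1 and 25.5 and 41.4 in replicate 2. With T3 in TRB cells CEMIP came down to the range of HYAL2 and HYAL3, which stood at 1.77 ± 0.0928 and 2.32 ± 0.543 CPM per kb in EV vehicle.

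**Figure D2:**
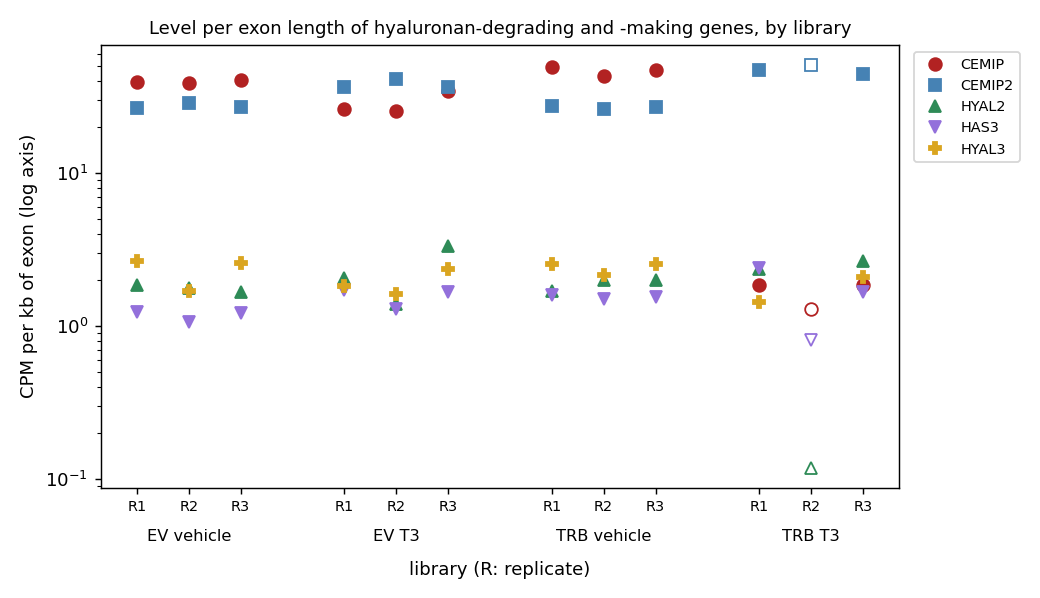
CPM per kilobase of exon (log axis) of CEMIP, CEMIP2, HYAL2, HAS3 and HYAL3 in the 12 libraries, by group and replicate; open symbols are TRB T3 replicate 2, where HYAL3 had 0 counts and is not drawn. CEMIP and CEMIP2 stand above the other genes except in TRB T3, where CEMIP drops to 1.30 to 1.87 CPM per kb.

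Of the hyaluronidases, HYAL2, a lysosomal or membrane-anchored enzyme that cuts long chains, was measured at 7.63 to 8.47 CPM in EV vehicle and 6.34 to 15.2 CPM in EV T3. It stood at 7.72 to 9.15 CPM in TRB vehicle and at 10.7, 0.540 and 12.1 CPM in TRB T3, where the middle value is replicate 2. HYAL2 is GC-rich (62.8% of the bases of its longest transcript, against a median of 48.4% over tested genes). The T3 log2 fold change in TRB cells was -0.12 (SE 0.647, edgeR adjusted p = 0.915) on 12 libraries and 0.44 (SE 0.241, edgeR adjusted p = 0.188) on 11, so its direction turned with that library and neither value passed.

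HYAL3, a weaker relative of HYAL1, stood at 3.43 to 5.43 CPM in EV vehicle, 3.28 to 4.81 in EV T3 and 4.39 to 5.20 in TRB vehicle. In TRB T3 it stood at 2.93, 0 and 4.25 CPM, and the 0 counts of replicate 2 allow up to 0.540 CPM (3 counts, counting error only). The T3 log2 fold change in TRB cells was -0.96 (SE 0.620, edgeR adjusted p = 0.31) on 12 libraries and -0.45 (SE 0.250, edgeR adjusted p = 0.198) on 11. In EV cells the log2 fold change of HYAL2 was 0.33 (SE 0.662) and that of HYAL3 -0.27 (SE 0.631), and neither passed in either fit (lowest edgeR adjusted p 0.463). HYAL1, HYAL2 and HYAL3 lie together on chromosome 3, between 50292831 and 50322906 (hg38), all on the minus strand, and overlap neighbouring genes there, so their reads are less certain.

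HYAL1, the main hyaluronidase of lysosomes and plasma, was too low for the filter. It had 0, 5 and 2 counts in EV vehicle, 1, 2 and 2 in EV T3, 0, 3 and 1 in TRB vehicle and 11, 0 and 10 in TRB T3. The 21 counts with T3 against 4 with vehicle in TRB cells gave a ratio of levels of 6.51 (95% exact interval 2.20 to 26.1, counting error only). The inverse ratio, vehicle over T3, was 0.154, and it moved to 0.0581 without TRB vehicle replicate 2, which held 3 of the 4 vehicle counts, and ran up to 0.213 with another library left out. An exact two-sided permutation test over the 3 and 3 libraries gave p = 0.4, and the smallest p this design allows is 0.1. Without the low-count filter the edgeR adjusted p was 0.14 on 12 libraries and 0.000907 on 11, so the call rests on leaving out replicate 2, which has no HYAL1 count. In EV cells the counts were 5 with T3 and 7 with vehicle (ratio 0.995, 0.249 to 3.64).

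Among the synthases, HAS2, which makes long hyaluronan chains, was near the limit of detection and was lower with T3 in both kinds of cell. Its counts were 3, 12 and 11 in EV vehicle and 0, 1 and 1 in EV T3. In TRB cells they were 9, 6 and 11 with vehicle and 0, 1 and 0 with T3. The lowest vehicle library had 0.517 CPM and the highest T3 library 0.253 CPM, so vehicle and T3 did not overlap.

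Pooled over libraries, HAS2 stood at 0.938 CPM in EV vehicle and 0.101 CPM in EV T3, a ratio of 9.33 (95% exact interval 2.34 to 81.1, counting error only). In TRB cells it stood at 0.779 CPM with vehicle and 0.0372 CPM with T3, a ratio of 21.0 (3.44 to 859). These ratios rest on few T3 counts: with 1 library left out the EV ratio ran from 6.09 (without EV T3 replicate 1) to 14.6 (without EV T3 replicate 3). The TRB ratio ran from 10.5 (without TRB T3 replicate 1) to 24.4, and without TRB T3 replicate 2 no T3 count was left. An exact two-sided permutation test gave p = 0.1 in each kind of cell, the smallest that 3 against 3 libraries can give. Permuting within both vectors together, a test chosen after these counts were seen, gave an exact p = 0.005, the smallest it can give. Without the low-count filter the edgeR adjusted p for T3 was 0.0113 in TRB cells and 0.488 in EV cells on 12 libraries, and 0.000101 and 0.00609 on 11. The difference between the T3 responses of HAS2 did not pass (edgeR adjusted p = 0.936 on 12 libraries and 0.518 on 11, without the filter).

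HAS3, which makes shorter chains, was the only synthase that passed the filter. It stood at 6.52, 5.64 and 6.43 CPM in EV vehicle, 9.11, 6.87 and 8.86 in EV T3, 8.44, 7.93 and 8.14 in TRB vehicle and 12.7, 4.32 and 8.87 in TRB T3. The EV libraries with T3 all lay above those with vehicle, while TRB T3 replicate 2 lay below every other library. The T3 log2 fold change was 0.41 (SE 0.321, edgeR adjusted p = 0.935) in EV cells and 0.10 (SE 0.309, edgeR adjusted p = 0.84) in TRB cells on 12 libraries. On 11 libraries it was 0.41 (SE 0.183, edgeR adjusted p = 0.164) and 0.47 (SE 0.175, edgeR adjusted p = 0.0562). HAS1 had no count in any library, which allows at most 0.225 to 0.759 CPM at 3 counts per library. Per kilobase of exon, HAS3 (1.17 ± 0.0915 CPM per kb in EV vehicle) stood above HAS2 (0.210 ± 0.0476), and their ranges over libraries did not overlap in any group. The HAS3 gene spans chr16:69105564-69118719.

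CD44, the main cell-surface receptor of hyaluronan and also a tumour stem-cell marker, was the most abundant member per kilobase of exon (197 ± 5.74 CPM per kb in EV vehicle, SD, n = 3). It stood at 1979, 2027 and 1913 CPM in EV vehicle and at 1386, 1745 and 1356 CPM in EV T3. In TRB cells it stood at 1757, 1839 and 1741 CPM with vehicle and at 1227, 1624 and 1203 CPM with T3. Every T3 library lay below the vehicle libraries of the same vector, and the T3 mean was 76.0% of the vehicle mean in TRB cells and 75.8% in EV cells.

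On 12 libraries CD44 had a log2 fold change of -0.40 (SE 0.168, edgeR adjusted p = 0.143) in TRB cells and -0.40 (SE 0.168, edgeR adjusted p = 0.768) in EV cells. On 11 libraries it fell in both, with log2 changes of -0.50 (SE 0.123, edgeR adjusted p = 0.00712) in TRB cells and -0.40 (SE 0.109, edgeR adjusted p = 0.0466) in EV cells. The difference between the responses was 0.003 (95% interval -0.52 to 0.53) on 12 libraries and -0.11 (-0.46 to 0.25) on 11, and did not pass. Replicate 2 of TRB T3 lay 0.42 above replicates 1 and 3 on the log2 scale. CD44 spans chr11:35138870-35232402 and these counts do not separate its splice forms.

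The members were set against a list of 42 further genes of hyaluronan metabolism, 19 of which passed the filter. Of the 23 tested genes other than CEMIP, 8 passed for T3 in TRB cells on 12 libraries, 7 higher and 1 lower, or 34.8% against 14.7% of all genes. On 11 libraries 11 passed, 8 higher and 3 lower, or 47.8% against 33.3%. The median log2 change of the list was 0.42 on 12 and 0.24 on 11 libraries, beside 0.007 and -0.01 over all tested genes. The count was 5 without TRB vehicle replicate 3, and 0 when only the 3 and 3 TRB libraries were fitted, replicate 2 included. For T3 in EV cells 0 passed in edgeR on 12 libraries (2 with an unadjusted p under 0.05, and 1 in DESeq2), where 0.229% of all genes did. On 11 libraries 4 passed (CEMIP2 higher, and GFPT1, GNPNAT1 and CD44 lower), or 17.4% against 7.33% of all genes. Between TRB and EV cells in vehicle 0 of the 23 passed in edgeR, where 0.0208% of all genes passed on 12 libraries and 0.0742% on 11. Unadjusted p was under 0.05 for 0 and 6 of them, and DESeq2 called 0.

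**Figure D3:**
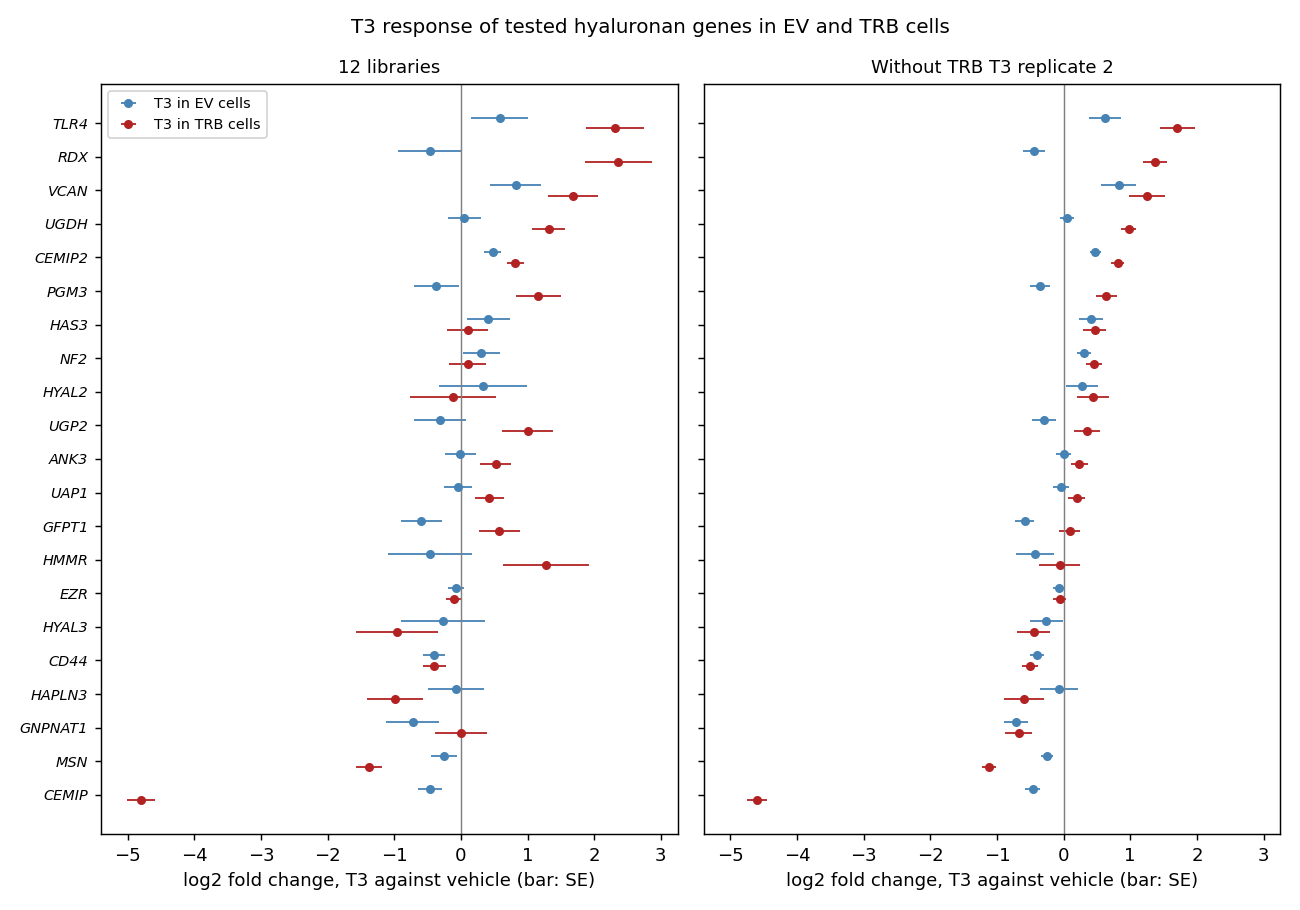
Log2 fold change of T3 against vehicle with its standard error for 21 of the 24 tested hyaluronan genes in EV cells and TRB cells, with 12 libraries (left) and without TRB T3 replicate 2 (right). CEMIP stands apart at -4.79 in TRB cells, while TLR4, RDX, VCAN and UGDH are the most positive there.

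Of the 6 tested enzymes that make the sugar-nucleotide precursors, 2 rose with T3 in TRB cells on 12 libraries (UGDH and PGM3), and on 11 libraries GNPNAT1 fell as well. These are 33.3% against 14.7% of all genes on 12 libraries and 50% against 33.3% on 11, in a short list. UGP2, UAP1 and GFPT1 passed in neither fit in these cells. UGDH, which makes UDP-glucuronic acid, stood at 513, 622 and 595 CPM in EV vehicle and at 622, 642 and 528 CPM in EV T3. In TRB cells it went from 459, 512 and 487 CPM to 921, 1788 and 926 CPM, with no overlap. Its log2 rise in TRB cells was 1.32 (SE 0.249, edgeR adjusted p = 0.00507) and 0.97 on 11 libraries (SE 0.117, edgeR adjusted p = 3.69e-05). In EV cells the log2 fold change was 0.05 on 12 libraries (SE 0.245, edgeR adjusted p = 0.974) and on 11 (SE 0.106, edgeR adjusted p = 0.767). With GC offsets on 12 libraries the rise in TRB cells was 0.86 for UGDH (edgeR adjusted p = 2.04e-05). The main fit called 2128 of all genes there, and GC offsets called more (counts under the dependence on processing).

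PGM3, a step in the UDP-N-acetylglucosamine branch, went from 35.4, 37.8 and 39.0 CPM with vehicle to 60.0, 139 and 52.7 CPM with T3 in TRB cells. The rise was 1.16 (SE 0.336, edgeR adjusted p = 0.0414) on 12 libraries and 0.64 (SE 0.161, edgeR adjusted p = 0.00819) on 11. It did not pass without any single EV vehicle library, EV T3 replicate 1 or any single TRB vehicle library (edgeR adjusted p 0.0505 to 0.117). GNPNAT1, the acetyl transfer step of the same branch, stood at 151, 199 and 194 CPM with vehicle and 112, 328 and 108 CPM with T3, so replicate 2 lay above and the others below the vehicle libraries. Its log2 fold change was 0.01 (edgeR adjusted p = 0.991) on 12 libraries and fell by 0.68 (SE 0.204, edgeR adjusted p = 0.0222) on 11. With GC offsets on 12 libraries the change in TRB cells was 0.59 for PGM3 (edgeR adjusted p = 9.77e-05) and -0.60 for GNPNAT1 (edgeR adjusted p = 0.000661). More of all genes passed in that setting than in the main fit.

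GFPT1, which opens the branch, had a log2 fold change of -0.59 in EV cells on 12 libraries (SE 0.310, edgeR adjusted p = 0.894) and fell by 0.58 on 11 (SE 0.138, edgeR adjusted p = 0.0282). With GC offsets this change shrank to -0.19 (edgeR adjusted p = 0.276) on 12 libraries and -0.20 (edgeR adjusted p = 0.0455) on 11. In TRB cells the log2 fold change of GFPT1 was 0.58 (edgeR adjusted p = 0.23) on 12 libraries and 0.09 (edgeR adjusted p = 0.696) on 11.

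Among other receptors and matrix proteins, TLR4, an innate immune receptor that fragments of hyaluronan can engage, went from 4.07, 3.36 and 4.95 CPM to 13.4, 36.0 and 12.7 CPM with T3 in TRB cells. It rose by 2.31 (SE 0.436, edgeR adjusted p = 0.00502) on 12 and 1.71 (SE 0.263, edgeR adjusted p = 0.000293) on 11 libraries. In EV cells TLR4 stood at 6.73, 8.58 and 7.63 CPM with vehicle and at 11.6, 15.6 and 6.83 CPM with T3. The log2 fold change there was 0.58 (edgeR adjusted p = 0.935) on 12 and 0.62 (edgeR adjusted p = 0.121) on 11 libraries. Between TRB and EV cells with T3, TLR4 did not pass (0.83, edgeR adjusted p = 0.229 on 12 libraries, and 0.19, edgeR adjusted p = 0.664 on 11). The summed level of 4 immune markers ran from 0.689 to 0.839 CPM in TRB vehicle and from 0.180 to 9.87 CPM in TRB T3. CD14 made up to 9.74 CPM of it, while PTPRC, which marks all white blood cells, stayed at 0.217 CPM or less in every library, and the part of these markers in the rise was not tested. VCAN, a proteoglycan that binds hyaluronan, was low: 1.32, 1.38 and 1.09 CPM with vehicle and 2.85, 6.84 and 2.998 CPM with T3 in TRB cells. It rose by 1.69 (SE 0.373, edgeR adjusted p = 0.0117) and 1.25 (SE 0.271, edgeR adjusted p = 0.00339) there. In EV cells the log2 fold change of VCAN was 0.82 (SE 0.389, edgeR adjusted p = 0.85) on 12 and 0.82 (SE 0.266, edgeR adjusted p = 0.0768) on 11 libraries. VCAN did not pass without TRB vehicle replicate 3 (edgeR adjusted p = 0.0512).

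The list of CD44 linkers held 5 genes, of proteins that join CD44 to the cell skeleton or are related to those that do. With T3 in TRB cells MSN fell and RDX rose on 12 libraries, and EZR, NF2 and ANK3 did not pass. This is 40% of the list against 14.7% of all genes. On 11 libraries the shares were 60% and 33.3%. MSN (moesin) stood at 491, 501 and 477 CPM with vehicle and 223, 131 and 213 CPM with T3 in TRB cells, and at 493, 444 and 486 CPM against 386, 413 and 397 CPM in EV cells. It fell by 1.37 in TRB cells (SE 0.193, edgeR adjusted p = 0.000834) and by 1.12 (SE 0.0993, edgeR adjusted p = 2.63e-06) on 11 libraries. RDX (radixin) went from 58.4, 69.3 and 67.9 CPM to 159, 679 and 167 CPM with T3 in TRB cells. It rose by 2.36 (SE 0.502, edgeR adjusted p = 0.00968), and by 1.37 (SE 0.177, edgeR adjusted p = 6.96e-05) without replicate 2, whose level was far above the others. The third of this family, EZR (ezrin), stood at 188 to 227 CPM in all 12 libraries and passed in no comparison (lowest edgeR adjusted p for T3 0.577). NF2 (merlin), a related tumour suppressor, passed with T3 in TRB cells on 11 libraries (0.46, SE 0.116, edgeR adjusted p = 0.00863) but not on 12 (0.10, SE 0.281, edgeR adjusted p = 0.823). ANK3 (ankyrin 3) had log2 fold changes of 0.52 (edgeR adjusted p = 0.158) on 12 and 0.24 (edgeR adjusted p = 0.183) on 11 libraries.

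With T3, 4 of the 23 differed between TRB and EV cells on 12 libraries (UGDH, PGM3 and RDX higher, MSN lower), or 17.4% against 6.68% of all genes. CEMIP2 was added on 11 libraries, where the share of 21.7% was close to the 19.7% of all genes. The count of 4 fell to 1 without EV T3 replicate 1 or 3, to 2 without EV T3 replicate 2, EV vehicle replicate 3 or TRB vehicle replicate 2 or 3, and to 0 with the compared groups alone. For the difference between the T3 responses of TRB and EV cells, 0 of the 23 passed in edgeR on 12 libraries, where 2.59% of all genes did. Of these 23, 8 had an unadjusted p under 0.05, and DESeq2 called 4 (UGDH, PGM3, MSN and RDX). Without TRB T3 replicate 1 or 3, 1 passed (RDX). On 11 libraries 5 passed (21.7% against 15.2% of all genes): UGDH, PGM3, RDX and GFPT1 had the more positive response in TRB cells and MSN the more negative one. None of these 5 is CD44, HAS3, HYAL2 or HYAL3. CEMIP's own difference was -4.34 (SE 0.267) on 12 and -4.14 (SE 0.183) on 11 libraries, given as a description.

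**Figure D4:**
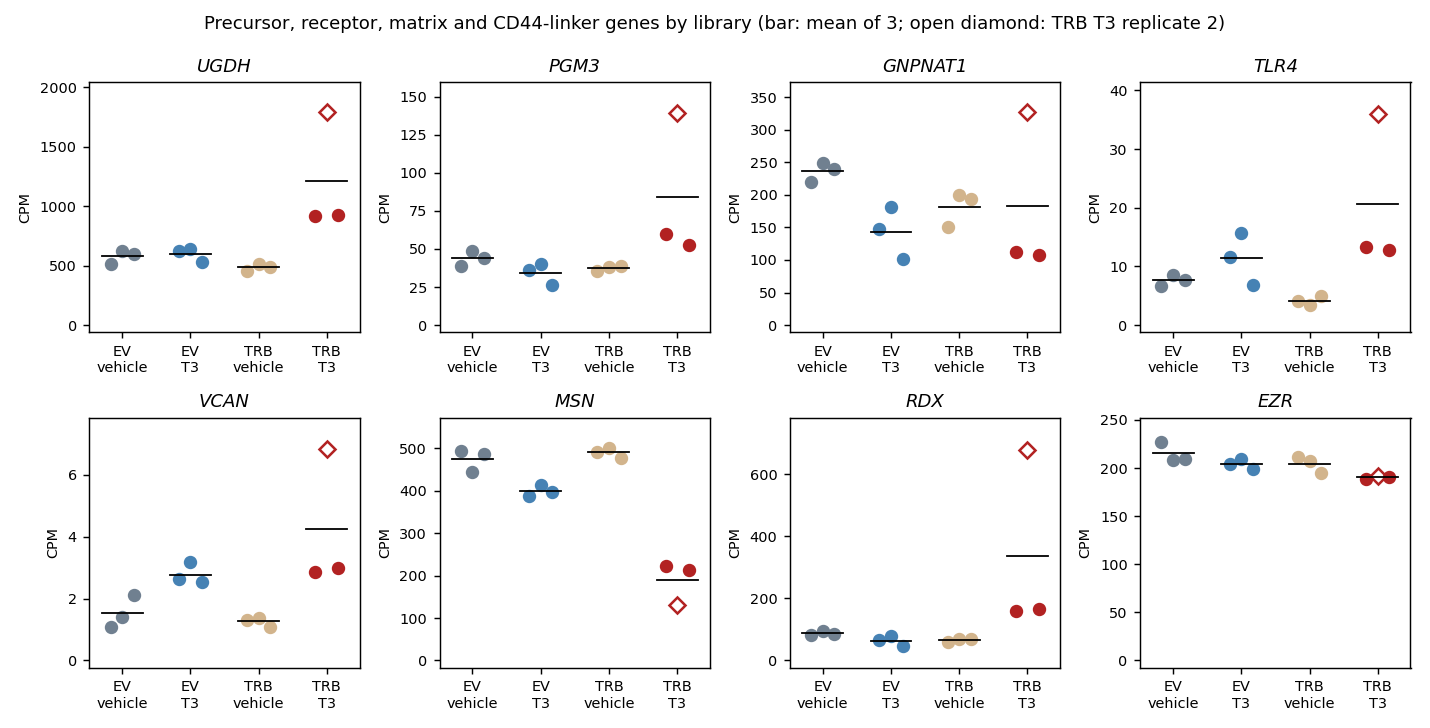
CPM of precursor enzymes (UGDH, PGM3, GNPNAT1), TLR4, VCAN and the CD44 linkers MSN, RDX and EZR in each library (points), with the mean of 3 (bar); the open diamond is TRB T3 replicate 2. MSN falls and UGDH rises in TRB T3, and EZR stays between 188 and 227 CPM.

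The genes whose pattern over the 12 libraries was most like that of CEMIP were ranked by Pearson correlation of log2 CPM among 10094 genes whose mean log2 CPM reached 3. They were TBL1X (0.992), RPIA (0.992), AKAP1 (0.992), SH3RF2 (0.990), RP11-983P16.4 (0.989), SIPA1L2 (0.988), ENC1 (0.987) and AQP3 (0.987). These correlations share the libraries and the low point of TRB T3, and are a description. TBL1X, part of nuclear receptor corepressor complexes, had mean levels of 123 CPM in EV vehicle, 89.2 in EV T3, 117 in TRB vehicle and 27.7 in TRB T3. ENC1 had 839, 676, 841 and 284 CPM in the same order, and AQP3, a water and glycerol channel, had 19.1, 15.5, 23.6 and 3.62 CPM. None fell as far as CEMIP. The 3 genes most like CD44 were NUP35 (0.978), TTC27 (0.976) and HMGA2 (0.976), and HMGA2, a chromatin protein of embryonic and tumour cells, had 186, 85.4, 154 and 77.1 CPM. Those most like HAS3 were TRPC4AP (0.935), KLHL22 (0.924) and POFUT2 (0.919). For HYAL2 they were NDUFAF3, MTG2 and GYLTL1B (0.995 to 0.997) and for HYAL3 ANKS1A, HPCAL1 and HDDC3 (0.992 to 0.994), where the low value of TRB T3 replicate 2 is shared: without it the correlations were 0.943 to 0.970 and 0.822 to 0.891.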

How the data were processed

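For each of the 12 libraries the authors deposited unnormalized read counts by gene symbol. The 5 closing lines, for reads in no gene, entered neither library sizes nor tests. Per the submitters' processing notes, the tools included STAR 2.7, HTSeq 0.10, CASAVA 1.7 and DESeq2 and the build was hg38; the annotation release and strand setting are not given in the sources used here. The closing line for alignments that were not unique held 19.0% to 92.0% of a file's counts. Groups came from the labels.

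The analysis used edgeR 4.0.16 in R 4.3.3: filterByExpr (minimum count 10, minimum total 15; 14431 genes left), TMM scaling, a quasi-likelihood fit of the 4 groups, two-sided tests of 5 contrasts and Benjamini-Hochberg adjustment over all tested genes at 0.05. The fit of 11 libraries tested 14825 genes. CPM was scaled with TMM, and exon lengths, GC content and gene coordinates came from GENCODE 29 by symbol. HAS2 and HYAL1 were compared by summed counts with 95% exact intervals and exact permutation tests. The scripts were tested on simulated counts. Alternatives were DESeq2 1.42.0, other scalings, filters, the compared groups alone, a replicate block, leaving out each library, GC offsets and, chosen after seeing the data, GC offsets on 11 libraries.

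The members and lists were chosen with earlier results of these data known. Named genes are the members, listed genes that passed in any contrast (up to 5 per list), members' family relatives, the 8 genes most like CEMIP and the 3 most like each other tested member, and THRB and KLF9 as checks. Of the listed genes, 1 that passed is counted but not reported here.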

Additional observations from a re-analysis of the deposited data

Results flagged for a closer look

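In 5 genes of the hyaluronan lists the response to T3 differed between TRB and EV cells by the test of the difference itself, in the edgeR fit of 11 libraries. These are 21.7% of the 23 genes, against 15.2% of all genes tested in that fit. The difference on the log2 scale was 0.92 for UGDH (edgeR adjusted p = 0.00226), 0.99 for PGM3 (edgeR adjusted p = 0.01), 0.67 for GFPT1 (edgeR adjusted p = 0.0434), 1.81 for RDX (edgeR adjusted p = 0.000396) and -0.87 for MSN (edgeR adjusted p = 0.000855). With all 12 libraries the differences were 1.27, 1.53, 1.17, 2.82 and -1.12, with edgeR adjusted p of 0.0922, 0.131, 0.195, 0.0618 and 0.058. Both fits gave each gene the same direction, and the 12-library values of UGDH, PGM3, GFPT1 and RDX include a TRB T3 replicate 2 that lies above its group's other libraries. With GC offsets on 12 libraries the differences were 0.52, 0.61, 0.20, 1.69 and -0.97 (edgeR adjusted p 0.0187, 0.00343, 0.279, 0.000378 and 0.000731), so that of GFPT1 did not pass there.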

How the results depend on the processing

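In 62 results, 1141 values were recomputed under other settings, and 633 of those with 1 library left out and 295 of those under other settings kept their direction and side of the threshold (for counts, stayed within 1.5 times). Where they did not, the cause was not tested. The depth limits HAS2 and HYAL1, whose counts per library never passed 12.

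Genes called for T3 in TRB cells ran from 1256 to 4938 with 1 library left out, and were 634 with the compared groups alone, 5296 under GC offsets and 7071 under the same on 11 libraries. Hyaluronan genes called there ran from 5 to 11, and were 0, 14 and 16 in the same settings. For T3 in EV cells the genes called ran from 10 to 1087 with 1 library left out, and were 172 in DESeq2, 19 without the low-count filter, 200 with the compared groups alone, 556 under GC offsets and 2202 on 11 libraries with them. Hyaluronan genes called there ran from 0 to 4, and were 1 in DESeq2 and 3 and 8 with GC offsets on 12 and 11 libraries. Between the vectors in vehicle the genes called ran from 1 to 11, and were 8 in DESeq2, 1563 with the compared groups alone, 7 under GC offsets and 122 on 11 libraries with them, and 6 hyaluronan genes passed with the compared groups alone. With T3 the vectors differed in 414 to 2918 genes with 1 library left out, 1905 in DESeq2, 32 with the compared groups alone, 3551 under GC offsets and 5213 on 11 libraries with them. Hyaluronan genes among them ran from 1 to 5, and were 0 with the compared groups alone, 8 under GC offsets and 11 on 11 libraries with them. The difference between the T3 responses passed in 136 to 2259 genes with 1 library left out, 1022 in DESeq2, 238 without the filter, 2373 under GC offsets and 4313 on 11 libraries with them. Hyaluronan genes among them ran from 0 to 5, and were 4 in DESeq2, 1 without the filter, 5 under GC offsets and 9 on 11 libraries with them.

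CEMIP kept its direction with every library left out, from -4.86 to -4.60 for T3 in TRB cells and from -0.58 to -0.32 in EV cells. Directions turned in genes that did not pass on 12 libraries. With GC offsets on 12 and on 11 libraries HYAL2 changed by 0.30 and 0.35 in the T3 response of TRB cells, -0.0026 and -0.017 in that of EV cells, -0.14 and -0.14 between vectors in vehicle, 0.16 and 0.23 with T3, and 0.30 and 0.36 in the difference of responses. In the same 2 settings HYAL3 differed by -0.10 and -0.090 between vectors in vehicle, and the difference of responses was 0.0066 and 0.10 for HAS3 and -0.24 and -0.24 for CD44. GNPNAT1 for T3 in TRB cells was -0.044 without the filter, -0.013 with the compared groups alone, -0.60 under GC offsets and -0.72 on 11 libraries with them. With 1 library left out the values that turned sign ran as follows for T3 in TRB cells: HAS3 -0.27 to 0.47, HYAL2 -0.49 to 0.44, GNPNAT1 -0.68 to 0.26 and NF2 -0.065 to 0.46. HYAL2 ran from -0.0060 to 0.66 for T3 in EV cells and HYAL3 from -0.087 to 0.22 between vectors in vehicle. With T3, HAS3 ran from -0.28 to 0.48 and HYAL2 from -0.74 to 0.29 between vectors, and in the difference of responses HAS3 ran from -0.72 to 0.057, HYAL2 from -0.87 to 0.16 and CD44 from -0.11 to 0.090.

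The replicate numbers paired the libraries only in part. Same-numbered libraries of different groups had correlations of -0.19 to 0.73, 12 of 18 over 0.1. Of the 12 libraries, 7 correlated best with their own number. Every pair of libraries numbered 2 correlated positively (0.12 to 0.73), while numbers 1 and 3 each held negative pairs. With a replicate block 2278 genes were called for T3 in TRB cells, 18 for T3 in EV cells, 2 and 1068 between vectors in vehicle and with T3, and 395 in the difference of responses. The block left 8, 0, 0, 4 and 0 hyaluronan genes called in these 5 comparisons and turned GNPNAT1 for T3 in TRB cells to -0.14.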
